A study of Rattus norvegicus with 8 samples.

Results

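The colon of rats fed a diet with 10% cocoa (C10 group) was compared with that of rats fed the standard AIN-93M reference diet (REF group), across all genes of an Agilent 2-colour microarray. The comparison took 8 of the 16 rats of the series, 4 on each diet, and was chosen by diet from the sample labels. All were female Wistar rats, aged 6 weeks and fed for 3 weeks, and the RNA came from a piece of 5 mm cut from mid-colon, so that every layer of the wall was measured together. The other 8 rats received cocoa fiber (CF group, 4 rats) or inulin (I group, 4 rats). They served in the fit to estimate the spread between rats. Through the arrays they shared with C10 and REF rats, they also entered the estimates of the differences.

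The slide held 8 arrays of 2 rats each, in different dyes (Cy5 and Cy3), and the dyes were balanced within diets. C10 rats 1 and 2 shared arrays 1 and 2 with REF rats 1 and 2. C10 rats 3 and 4 lay on arrays 3 and 4 beside CF rats, whereas REF rats 3 and 4 lay on arrays 7 and 8, on the other side of the slide, beside I rats. Between 68.6 and 83.9% of spots were well above background in the 8 rats, with REF rat 3 (Cy3) lowest and REF rat 2 (Cy5) highest. The share differed by dye, at 68.6 to 75.3% in Cy3 and 74.3 to 83.9% in Cy5.

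Levels are given as normalized log2 signals, on which 1 unit is a 2-fold difference, and differences as C10 minus REF on that scale with the standard error (SE). Except where certain arrays are named, differences are those of the fit, adjusted for array and dye. They can therefore depart from the plain difference of the levels printed, also across the 2-fold line. For Idi1 the means were 10.64 in C10 and 11.59 in REF, and the fitted difference was -1.21. A level is not comparable between genes, because each probe has its own brightness. An offset of 50 was added to every signal before the logarithm, which narrows the differences of dim probes, so the size of a change in a dim gene depends on it and the difference without the offset is given for the main ones. A gene was called changed at an adjusted p below 0.05 (limma with Benjamini-Hochberg adjustment over 19899 genes), and "rose" or "fell" is used for these genes alone. In a piece of whole wall, fewer cells of a type and less RNA per cell cannot be told apart.

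Some rats stood apart before any comparison. The summed signal of the smooth muscle genes was 16.65 in C10 rat 1, against 18.77 to 18.8 in the other C10 rats and 18.6 to 19.48 in REF. The summed B cell signal was highest in C10 rat 1 (14.59), REF rat 3 (14.31) and C10 rat 3 (13.27), and lay between 11.78 and 12.39 in the other 5 rats. The third kind of difference concerned Hoxb13, a Hox gene of the hind body, whose level was 6.6 in REF rat 4, against 12.36 to 14.06 in the other REF rats and 13.42 to 14.88 in C10. Thus muscle content, lymphoid content and posterior Hox expression differed between pieces within a diet, and their part in the results was not tested. The colon epithelium itself was sampled in every rat: the 16 members of that list were well above background in all 8 rats, their median difference was 0.11, and none rose or fell.

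A total of 298 genes (1.5% of those tested) changed between the diets, of which 105 rose (0.528%) and 193 fell (0.97%) in C10. At 2-fold or more, 45 genes (0.226%) changed, 4 of them up and 41 down, so that the large changes were mostly falls. Small changes made up much of the rest, since 162 of the 298 were under 1.5-fold, 78 of them rises. All 4 C10 rats lay apart from all 4 REF rats for 239 of the 298 genes and for 35 of the 45, against 908 of all genes (4.56%). The genes had been called by these same values, so their separation is a description and no second test. For any gene with such separation, the exact permutation test of 4 rats against 4 (two-sided) gave p = 0.0286, the smallest that this design allows. Over all genes the median difference was 0.0134 and 53.9% of genes were higher in C10, and these values are the reference for the lists described here.

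These counts depended on how the rats of an array were modelled. With duplicateCorrelation, another estimate of the correlation between the 2 rats of an array (0.421 instead of 0.477), 63 genes rose, 115 fell and 37 changed at 2-fold or more, all 37 of them among the 45. With only the 8 C10 and REF rats in the fit, 7 rose and 12 fell, and with log-ratios within arrays none passed, although 2626 genes had an unadjusted p below 0.05 (3677 in the fit reported). Leaving out 1 rat gave between 6 (without REF rat 2) and 452 (without REF rat 3) rises and between 36 and 655 falls, lowest and highest without the same rats. Without C10 rat 1, 161 genes rose and 195 fell, and without REF rat 4, 21 rose and 77 fell.

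**Figure D1:**
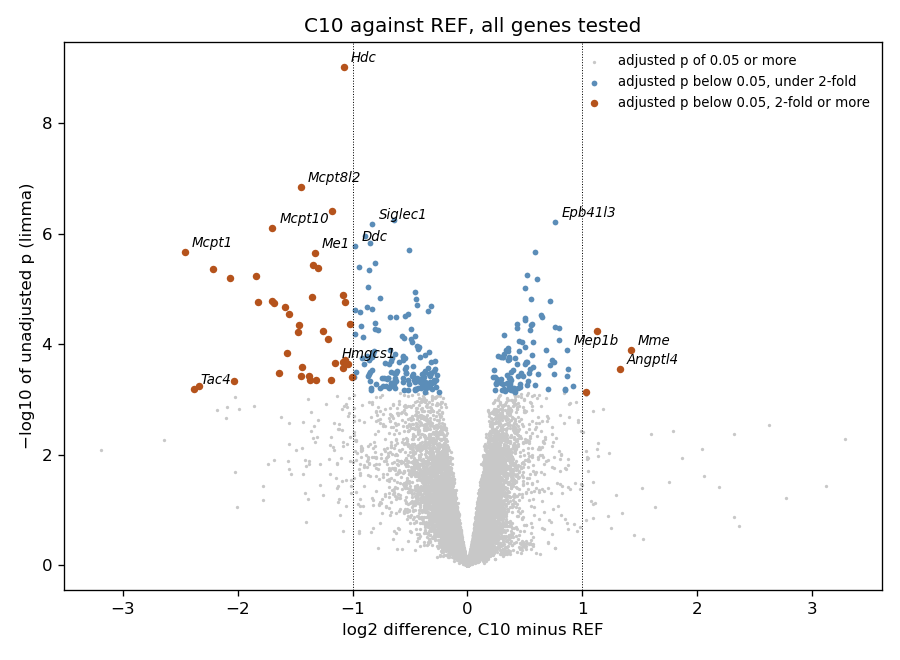
Each point is 1 of the 19899 genes tested, placed by its log2 difference (C10 minus REF, horizontal axis) and by the −log10 of its unadjusted limma p (vertical axis). Blue points passed an adjusted p of 0.05 at under 2-fold and orange points at 2-fold or more. The 41 large falls lie left of the left dotted line at 2-fold and the 4 large rises right of the other, with Hdc highest at a difference of -1.08.

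Of the genes that fell at 2-fold or more, 30 had a current symbol, and the leading group among them belonged to mast cells. Mast cells are resident immune cells of the gut wall that carry IgE on a high-affinity receptor. When the receptor is cross-linked they release histamine and proteases stored in granules, and they make prostaglandin D2 and cysteinyl leukotrienes. The granule proteases are chymases, tryptases and a carboxypeptidase, and mast cells of the mucosa and of connective tissue are known to differ in which of these they store.

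Most of the granule proteases that could be measured were lower in C10 than in REF. Of the 12 list members tested, 8 fell and none rose, by 2.09 to 5.51-fold, and the list had a median difference of -1.42. All 8 separated the diets completely. The largest fall was that of Mcpt1, a chymase, whose levels were 10.45, 10.14, 8.63 and 8.5 in C10 rats 1 to 4, and 12.43, 11.64, 12.32 and 12.17 in REF rats 1 to 4. Every C10 rat lay more than 1 unit under the lowest REF rat, and rats 3 and 4 were lower than rats 1 and 2. The difference was -2.46 (SE 0.32, limma adjusted p = 0.00314).

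Mcpt1 lies on chromosome 15 in a run of chymase and related protease genes, taken here from Cma1 to Mcpt1. In the RefSeq annotation of the assembly GRCr8 this stretch holds 24 genes, of which 8 were measured, and 7 of them fell, all but Mcpt3. Both ends of the stretch are genes that fell, and Mcpt10, which fell and lies on the same chromosome, is outside it. The 150 bases before the transcription start of a few of these genes, with those of Cpa3 and Fcer1a from other chromosomes, are shown because they fall into groups of near copies. Capitals mark GATAA on either strand (TTATC on the other), a core that GATA factors are known to bind. The motif and the genes were chosen after the changes were seen.
Mcpt1, chr15:33841456-33841605 (plus strand): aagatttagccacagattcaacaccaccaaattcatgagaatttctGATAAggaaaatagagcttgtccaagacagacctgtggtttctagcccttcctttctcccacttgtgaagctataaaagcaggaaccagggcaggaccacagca
Vch, chr15:33569591-33569740 (plus strand): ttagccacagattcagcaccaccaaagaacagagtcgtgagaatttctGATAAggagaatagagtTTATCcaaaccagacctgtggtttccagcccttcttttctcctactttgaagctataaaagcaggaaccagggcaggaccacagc
Mcpt8, chr15:33769499-33769648 (plus strand): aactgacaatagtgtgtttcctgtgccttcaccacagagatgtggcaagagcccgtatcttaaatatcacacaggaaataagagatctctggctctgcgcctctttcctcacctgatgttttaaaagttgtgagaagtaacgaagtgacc
Mcpt9, chr15:33827280-33827429 (plus strand): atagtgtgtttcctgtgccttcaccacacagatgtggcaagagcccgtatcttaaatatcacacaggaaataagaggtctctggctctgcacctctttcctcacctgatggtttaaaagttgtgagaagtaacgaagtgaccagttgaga
Cpa3, chr2:104673238-104673387 (minus strand): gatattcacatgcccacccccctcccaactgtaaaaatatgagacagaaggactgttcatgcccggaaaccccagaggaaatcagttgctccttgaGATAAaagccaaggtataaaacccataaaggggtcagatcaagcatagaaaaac
Fcer1a, chr13:88224680-88224829 (minus strand): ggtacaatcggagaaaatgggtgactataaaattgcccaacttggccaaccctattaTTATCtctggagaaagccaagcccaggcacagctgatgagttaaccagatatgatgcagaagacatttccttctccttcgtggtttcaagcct
Mcpt1 and Vch (vascular chymase) were 84.1% identical over this stretch and hold the motif in the part they share, as does Mcpt4, which was 75% identical with Vch. Mcpt8 and Mcpt9 were 87.3% identical and hold no such letters in this window. Of 15 genes looked up, 11 had a promoter in the RefSeq table and 7 of these held the motif, against 14.2% of 33469 rat promoters of the same length. The 11 include near copies, which do not count as separate cases, so whether the motif is enriched cannot be judged from these shares. Both groups of near copies fell, with or without the letters. The array files hold no probe sequences, so how far near copies share signal on the arrays was not tested.

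The granzyme-like proteases moved beside the chymases. Mcpt8 was at 11.68, 10.97, 10.27 and 10.12 in C10 rats 1 to 4 and at 12.96, 12.05, 12.94 and 12.65 in REF, a fall of 3.22-fold (difference -1.69, SE 0.26, adjusted p = 0.00978 by limma). Mcpt9 was at 11.01, 10.26, 9.37 and 9.73 against 12.34, 11.46, 12.07 and 12.07, and fell by 3.25-fold. Mcpt10 was at 8.43, 8.08, 7.46 and 7.22 against 9.94, 9.23, 9.64 and 9.71, and fell by 3.24-fold. For all 3 genes C10 rat 1 was the highest of its diet and REF rat 2 the lowest of its own, and the gap between these rats was narrow beside the spread within C10 for Mcpt8 and Mcpt9.

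Mcpt8l2, a further gene of this type, was at 7.24, 7.15, 6.6 and 6.5 in C10 and at 8.61, 8.23, 8.36 and 8.57 in REF, a difference of -1.45 (SE 0.15, limma adjusted p = 0.00142). Cma1 (chymase) was at 7.08, 7, 6.73 and 6.74 against 7.98, 7.5, 8.48 and 8.12. Cpa3, the mast cell carboxypeptidase, was at 8.32, 8.69, 7.31 and 8.33 against 9.8, 9.9, 9.17 and 9.82. For Cpa3, C10 rat 3 and REF rat 3 were the lowest of their diets, and the gene fell 3-fold, while Cma1 fell by 2.09-fold.

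Mcpt4 and Vch fell with larger adjusted p than the other proteases. Mcpt4 was at 6.61, 7.25, 6.81 and 5.97 against 8.32, 7.68, 8.09 and 8.44 (difference -1.38, SE 0.3, limma adjusted p = 0.0401), and with duplicateCorrelation its adjusted p was 0.0507. Vch, which is no member of the list, was at 7.45, 7.64, 6.86 and 6.05 against 8.96, 7.93, 8.96 and 8.73, a difference of -1.44. Without the offset the difference was -2.12 for Mcpt4, -1.59 for Cma1, -2.08 for Mcpt8l2 and -2.01 for Vch, against -2.6 for the brighter Mcpt1.

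None of the 3 tryptases tested passed, and their groups overlapped. Tpsb2 was at 6.66 to 6.82 in C10 and 6.61 to 6.91 in REF (difference 0.01, SE 0.1), and Tpsab1 at 6.25 to 6.5 and 6.3 to 6.55 (difference -0.01, SE 0.06). Tpsg1, a membrane-anchored tryptase with a much brighter probe, ranged from 10.29 to 11.2 in C10 and from 10.72 to 11.2 in REF (difference -0.21, SE 0.15). Mcpt3 was not well above background in any C10 rat, with a difference of -0.22 (SE 0.14). Levels near 6 are close to the lowest signal well above background, which was 5.83 to 6.21 in these rats, which leaves little room to measure a fall in Mcpt3, Tpsab1 and Tpsb2.

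**Figure D2:**
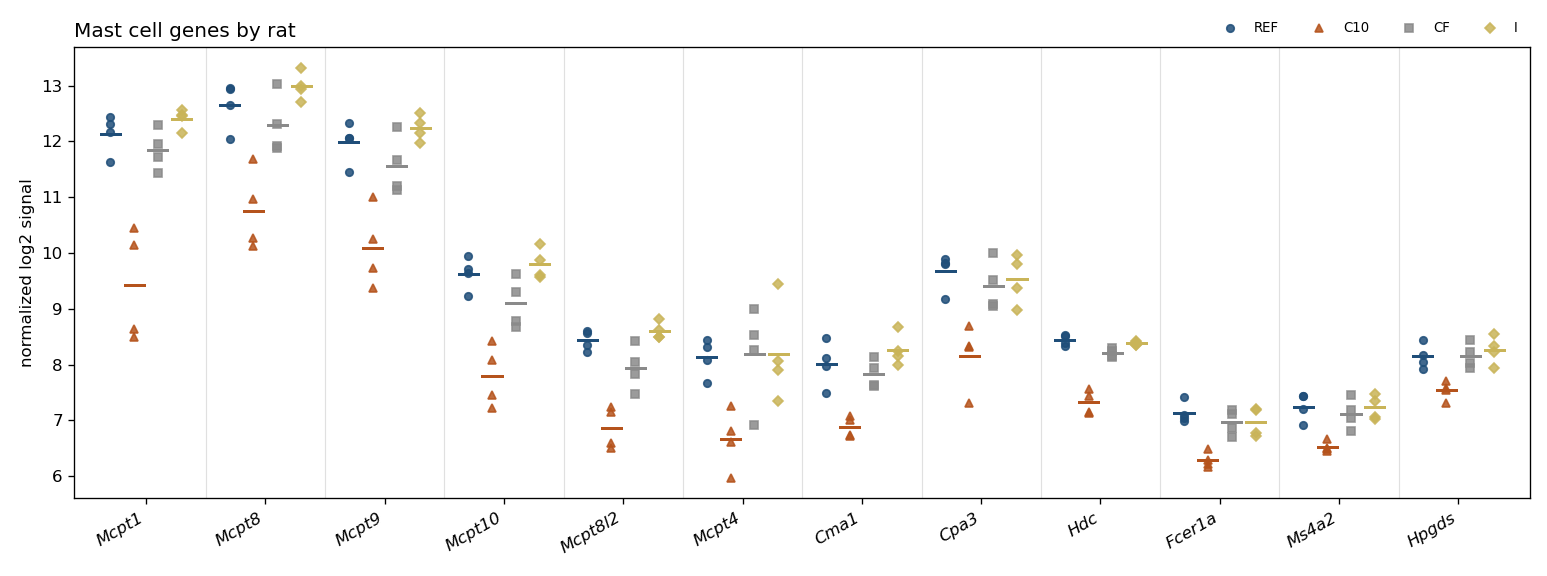
Normalized log2 signal (vertical axis) of 12 mast cell genes that fell, in each of the 16 rats, with 1 symbol per rat and the diets by colour and shape. Short bars are the means of 4 rats. The 4 C10 rats (orange triangles) lie under the 4 REF rats (blue circles) for every gene drawn, for Mcpt1 between 8.5 and 10.45 against 11.64 to 12.43.

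Genes for histamine synthesis and the IgE receptor fell as well. Of the 15 tested members of the list of mast cell receptors and identity genes, 6 fell and none rose, with a median of -0.27. Hdc, the enzyme that makes histamine, was at 7.57, 7.44, 7.15 and 7.13 in C10 and at 8.54, 8.38, 8.52 and 8.34 in REF. Rats of a diet differed little from each other, and the difference of -1.08 (SE 0.07) had the smallest adjusted p of all genes (1.95e-05 by limma).

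All 3 chains of the high-affinity IgE receptor fell. Fcer1a, the chain that binds IgE, was at 6.29, 6.48, 6.22 and 6.17 against 7.05, 6.99, 7.42 and 7.1, and was well above background in 2 of the 4 C10 rats. Ms4a2, the beta chain, was at 6.5, 6.66, 6.49 and 6.45 against 7.2, 7.43, 6.91 and 7.43. Fcer1g, the gamma chain, which macrophages and other cells also use, was at 10.29, 10.74, 10.22 and 10.67 against 11.08, 10.96, 10.99 and 11.64. No C10 rat reached the lowest REF rat for any of the 3 chains. The differences were -0.8 for Fcer1a, -0.76 for Ms4a2 and -0.67 for Fcer1g, and without the offset -1.73, -1.42 and -0.69, so the sizes for the dim alpha and beta chains rest on that setting.

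The enzymes for prostaglandin D2 (Hpgds, difference -0.56, SE 0.11) and leukotriene C4 (Ltc4s, -0.34, SE 0.06) fell too. Without the offset these differences were -0.77 and -0.67, and neither passed with processed signals. Kit, the receptor for stem cell factor, on which mast cells depend, was at 7.66 to 8.48 in C10 and 8.24 to 8.58 in REF, and its difference of -0.27 (SE 0.16) did not pass.

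The mast cell changes were compared with those on the cocoa fiber diet, which gave a similar amount of fiber with far fewer polyphenols. Polyphenols were not the only contrast. The paper names theobromine beside flavonoids as a candidate for the effects of cocoa, and reports a lower body weight in C10 but not in CF. The part of each was not tested. The C10 and CF comparisons with REF share the same REF rats, so their values are only placed side by side. For the 8 proteases that fell, CF minus REF ranged from -0.37 to 0.45 with adjusted p of at least 0.683 by limma, and I minus REF from 0.03 to 0.46. C10 was also compared with CF directly, where 138 genes (0.694%) passed, and all 8 proteases and 5 of the 6 receptor and identity genes were among them. This contrast uses the same C10 rats by whose values the genes had been chosen. It is therefore no independent test, here or for other genes compared with CF. For Mcpt1, C10 minus CF was -2.61 (adjusted p = 0.00539 by limma), and for Hdc -0.92 (adjusted p = 0.00015).

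These falls were larger between the rats that shared no array. The C10 rats all lay on arrays 1 to 4, and for Mcpt1 rats 3 and 4 (8.63 and 8.5) were lower than rats 1 and 2 (10.45 and 10.14). In REF, rats 3 and 4 (12.32 and 12.17) lay within the range of rats 1 and 2 (12.43 and 11.64). Spread between C10 rats and slide position therefore both enter this comparison, and their parts were not tested. On arrays 1 and 2, where C10 and REF rats shared an array, the 8 proteases differed by -1.74 to -0.71, and between C10 rats 3 and 4 and REF rats 3 and 4, which lay on different sides of the slide, by -3.68 to -1.56. All 8 still passed with position as a term in the fit. Between 6 and 8 of the proteases passed when any 1 rat was left out, 6 of them in every such fit, and 1 passed with only the 8 rats fitted. Of the receptor and identity genes, 3 to 6 passed with any 1 rat left out (lowest without REF rat 2), 4 with slide position and 2 with only the 8 rats.

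Other immune genes showed fewer changes. In the macrophage and dendritic cell list, 2 of 19 members fell and none rose (median -0.41). Siglec1, a sialic acid receptor of tissue macrophages, was at 6.65, 6.89, 6.82 and 6.74 against 7.46, 7.6, 7.53 and 7.8, a difference of -0.83 (SE 0.1, limma adjusted p = 0.0022). Fcgr3a, a low-affinity receptor for IgG found on macrophages, natural killer cells and mast cells of rodents, was at 6.46, 6.92, 6.64 and 6.44 against 7.37, 7.58, 7.25 and 7.58. Both genes separated the diets and passed in every fit that left out 1 rat, and their CF minus REF values were 0.07 and -0.21. Without the offset the C10 differences were -1.38 for Siglec1 and -1.48 for Fcgr3a.

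Nkg7, a granule protein of cytotoxic lymphocytes, was the single member of 25 in the T cell and natural killer list to fall (difference -0.81, SE 0.14). None of the 19 B cell genes passed, and their median of 0.22 became -0.13 without C10 rat 1 and 0.47 without REF rat 3, the rats with the highest B cell signal. Cxcl13, the chemokine of lymphoid follicles, illustrates this: it was at 10.94, 7.65, 9.74 and 8.58 in C10 and 7.58, 7.53, 10.63 and 6.98 in REF. The overlap came from REF rat 3, since the other REF rats lay under every C10 rat, but C10 rat 2 was close to REF rats 1 and 2. The difference of 1.35 (SE 0.8, limma adjusted p = 0.401) did not pass. None of the 15 plasma cell genes passed either, with a median of -0.29 and Tnfrsf17, a receptor of plasma cells, at -1.34 (SE 0.37, limma adjusted p = 0.0835). MHC class II (11 genes), interferon response (24), Toll-like receptor (15) and granulocyte (8) lists had no member that rose or fell.

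Retnlg, a resistin-like secreted protein, was at 8.84, 10.58, 9.19 and 9.54 in C10 and at 11.07, 10.89, 11.47 and 11.27 in REF. It fell by 2.93-fold (adjusted p = 0.0121 by limma), passed whichever rat was left out, and was also lower in C10 than in CF, by -1.64. Its relatives Retnla and Retnlb ranged over more than 3 units within REF and did not pass.

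Genes of the prostanoid and leukotriene pathway changed in both directions, with 4 of 24 falling and 1 rising (median -0.14). Apart from Hpgds and Ltc4s, the falls were in Ptgis, the prostacyclin synthase (difference -1.02, SE 0.17), and Tbxa2r, the thromboxane receptor (-0.33, SE 0.07). The call of Tbxa2r was lost with duplicateCorrelation (limma adjusted p = 0.0546), and the other 4 were kept. Alox15, a lipoxygenase, rose from 6.29 to 6.53 in REF to 6.76 to 7.25 in C10, a difference of 0.57 (SE 0.11, limma adjusted p = 0.0222) that was 1.19 without the offset. Its call was lost in 3 of 8 fits that left out a rat.

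In lipid synthesis, the changes called were falls. The sterol pathway builds cholesterol from acetyl units, and 4 of its 23 tested genes fell and none rose, with a median of -0.32. Idi1, which makes the activated isoprene unit, was at 10.63, 10.01, 10.96 and 10.94 in C10 and at 11.86, 12.01, 11.42 and 11.08 in REF (difference -1.21, SE 0.22, limma adjusted p = 0.0202). Hmgcs1, which makes HMG-CoA, was at 13.04, 12.61, 13.42 and 13.38 against 14.29, 14.49, 13.34 and 13.94, and its groups overlap at REF rat 3. Msmo1 and Sqle, 2 later enzymes of the pathway, differed by -0.93 and -0.81. REF rats 1 and 2 were the highest for all 4 genes and C10 rat 2 the lowest for 3 of them.

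The sterol falls therefore rested on few rats. They were -1.61 to -1.05 on arrays 1 and 2 and -0.3 to -0.23 between the other rats, and none of the 4 passed without REF rat 2 or without C10 rat 2. None passed against CF, whose values against REF were -1.03 to -0.65, with limma adjusted p of at least 0.575.

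Me1, the malic enzyme, which supplies NADPH for fatty acid synthesis, fell by a similar average on arrays 1 and 2 and between the other rats. It was at 10.35, 10.86, 11.37 and 10.19 in C10 and 12.12, 11.73, 12.11 and 11.86 in REF, with a second probe of the gene at -1.36 beside -1.33 (SE 0.17, limma adjusted p = 0.00314). The difference was -1.32 on arrays 1 and 2 and -1.2 between the other rats, and it passed whichever rat was left out and against CF (-0.83). It was the 1 gene of 14 in the fatty acid synthesis list to fall, and none rose.

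G0s2 and Mfsd2a, which belong to none of the lists, were among the 15 falls of smallest adjusted p. G0s2, an inhibitor of adipose triglyceride lipase, was at 10.57 to 10.94 in C10 and 11.45 to 12.01 in REF (difference -0.89, SE 0.11). Mfsd2a, a transporter of lysophosphatidylcholine, was at 6.92 to 7.31 against 7.76 to 8.35 (difference -0.85, SE 0.11). The diets did not overlap for either gene, and both passed without any 1 rat.

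Angptl4, a secreted inhibitor of lipoprotein lipase and target of PPAR receptors, rose by 2.52-fold, from 7.93, 7.16, 8.57 and 7.13 in REF to 9.28, 9.35, 8.4 and 8.64 in C10. REF rat 3 overlapped with C10, the gene lost its call in 5 of 8 fits that left out a rat, and CF minus REF was 1.08. None of 21 genes of lipid absorption and none of 19 adipocyte genes passed. Fabp1, the fatty acid-binding protein of liver and intestine, was at 8.8, 8.57, 9.02 and 6.66 against 10.97, 9.22, 8.41 and 10.41 (difference -1.56, SE 0.55, limma adjusted p = 0.153). Adipoq, the adipocyte hormone adiponectin, ranged over more than 2 units within either diet (difference -1.74, SE 0.62, adjusted p = 0.161 by limma).

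Among the rises were 2 peptidases of the brush border, the apical membrane of enterocytes. Mme (neprilysin), which cleaves small peptides, was at 8.84, 8.75, 8.08 and 9.12 in C10 and at 7.75, 7.11, 7.74 and 6.97 in REF, and rose by 2.69-fold (difference 1.43, SE 0.27, limma adjusted p = 0.0272). Mep1b, the beta subunit of meprin, was at 13.84, 14.28, 13.74 and 14.4 against 13.15, 13.38, 12.98 and 13.42, and rose by 1.83-fold. Neither group of values overlaps. These were the 2 of 17 members of the list that rose, and none fell. The summed signal of the list was 15.34 to 15.71 in C10 and 14.9 to 15.24 in REF.

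Of the same list, Dpp4, another peptidase, was at 10.66 to 11.28 against 9.68 to 10.48 (difference 1.04, SE 0.24, limma adjusted p = 0.0529), and Slc15a1, the peptide transporter of the gut, at 8.51, 9.65, 7.96 and 10.63 against 7.75, 7.28, 7.9 and 6.86 (difference 1.79, SE 0.51, adjusted p = 0.0915 by limma). The diets were separate for both genes, but neither passed. Mme and Mep1b passed neither without REF rat 2 nor without C10 rat 2 nor without REF rat 4, and neither passed against CF.

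**Figure D3:**
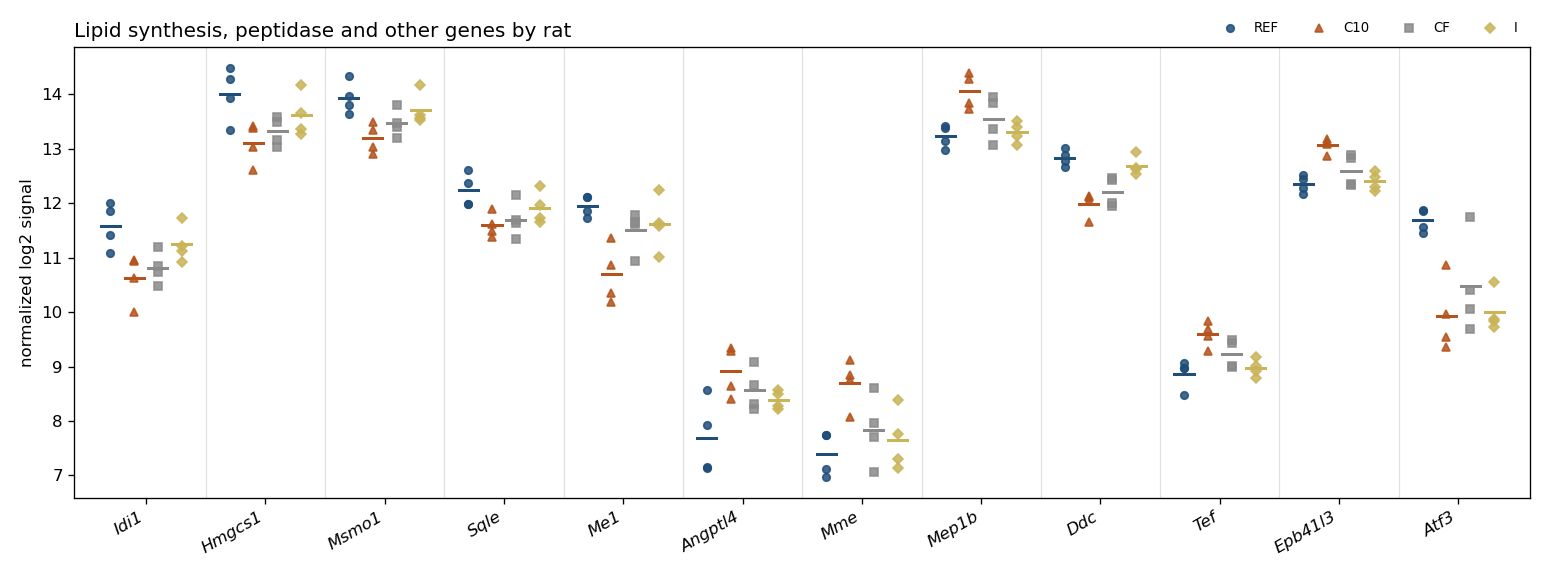
Normalized log2 signal (vertical axis) of 12 genes of lipid synthesis, peptidases and other functions in each of the 16 rats, drawn as for the mast cell genes, with means of 4 rats as short bars. The C10 rats lie above REF for Mme, Mep1b, Tef and Epb41l3, and under REF for Me1 (10.19 to 11.37 against 11.73 to 12.12), Ddc and Atf3. For Hmgcs1 the groups overlap.

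The smallest adjusted p among rises was that of Epb41l3, a protein that links the membrane to the actin skeleton. It was at 13.18, 13.09, 12.87 and 13.12 in C10 and at 12.29, 12.44, 12.17 and 12.52 in REF (difference 0.76, SE 0.09, adjusted p = 0.0022 by limma). A second probe gave 0.74, and the gene passed in every fit without 1 rat and against CF. Eif4ebp3, which binds the translation factor eIF4E (0.65), Tgif1, a homeobox repressor (0.5), Lypd3, a surface glycoprotein (0.43), St6galnac2, a sialyltransferase (0.54), and Upp1, a uridine phosphorylase (0.56), rose with complete separation of the diets. Of these, Lypd3 and Upp1 also passed against CF, by 0.44 and 0.63. Unlike Epb41l3, none of these other rises passed without REF rat 2 (limma adjusted p of 0.1 to 0.155).

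Among the rises were 2 genes of the circadian list. Tef, a transcription factor under clock control, was at 9.69, 9.83, 9.29 and 9.56 against 8.97, 8.47, 9.07 and 8.98 and rose by 1.74-fold (SE 0.14 on a difference of 0.8, limma adjusted p = 0.0159). Its call was lost in 2 of 8 fits that left out a rat. Per3, a period gene, rose by 1.23-fold, with an adjusted p of 0.047 that became 0.064 with duplicateCorrelation. These were 2 of the 14 tested genes of the circadian list, with a median of 0.19 and none falling. The hour at which each rat was killed is not given in the sources used here.

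Slc4a1, the anion exchanger of red cells, was the 1 of 11 erythrocyte genes that rose, by 1.29-fold (adjusted p = 0.0455 by limma, 0.0538 with duplicateCorrelation). Its difference of 0.37 was 0.8 without the offset. The list had the highest median of all lists drawn, 0.62, and Alas2, the heme synthesis enzyme of red cell precursors, was at 8.11 to 8.78 in C10 and 7.34 to 7.78 in REF (difference 0.64, SE 0.19) without passing. The summed erythrocyte signal overlapped, at 16.28 to 16.84 in C10 and 15.57 to 16.42 in REF.

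Of the tachykinin and gut neuropeptide list, Tac4 and Tac3 fell. Tac4, which encodes the tachykinin hemokinin, was at 7.56, 7.32, 7.68 and 6.64 in C10 and at 9.24, 10.36, 7.89 and 10.41 in REF. The REF rats differed among themselves by more than 2 units, with rat 3 near the C10 rats. The difference of -2.38 (SE 0.54, limma adjusted p = 0.046) lost its call in 5 of 8 fits without 1 rat and had an adjusted p of 0.0572 with duplicateCorrelation, and CF minus REF was -1.74. Tac3, the tachykinin neurokinin B fell by 1.74-fold, with every REF rat between 11.82 and 11.99 and no C10 rat above 11.56. These were 2 of the 21 genes tested, with a median of -0.38.

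Ddc, the decarboxylase that completes serotonin synthesis, was at 12.13, 11.65, 12.12 and 12.04 against 12.89, 13.02, 12.66 and 12.77. It fell by 1.98-fold (SE 0.12 on a difference of -0.98, limma adjusted p = 0.00314) and passed without any 1 rat. CF minus REF was -0.72, and C10 minus CF, at -0.26, did not pass (limma adjusted p = 0.358). Ddc was the single enteroendocrine gene of 21 to fall. Tph1, which catalyses the step before that of Ddc, was at 8.55 to 8.99 against 8.93 to 10.92 (difference -1.36, SE 0.35, adjusted p = 0.0671 by limma). Artn, a neurotrophic factor of the GDNF family, fell from 9.34 to 9.61 in REF to 8.74 to 9.07 in C10 (difference -0.64, SE 0.07).

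Of 38 striated muscle genes tested, 6 fell and none rose, with a median of -0.26, and Apobec2, Casq1, Casq2, Hrc and Smpx were among those that fell. Apobec2, a muscle protein of the cytidine deaminase family, was at 7.61, 8.04, 8.19 and 8.83 against 9.64, 9.28, 9.28 and 9.82 (difference -1.35, SE 0.21, limma adjusted p = 0.00957). Casq2, a calcium-binding protein of the sarcoplasmic reticulum, was at 6.65, 7.48, 7.78 and 8.68 against 8.79, 9.25, 8.79 and 8.81. C10 rat 1 was the lowest of all 8 rats for Apobec2 and Casq2. With duplicateCorrelation 4 of the 6 kept their call, and Casq2 (limma adjusted p = 0.0507) and Smpx (0.0539) did not. Casq1, Hrc and Smpx were dim, and without the offset differed by -1.45, -0.85 and -1.41 instead of -0.87, -0.56 and -0.56.

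Without C10 rat 1, 5 striated muscle genes fell. None of 19 smooth muscle genes passed, and their median of -0.71 was -0.14 without that rat. Myh11, the smooth muscle myosin, was at 13.12 in C10 rat 1 and at 15.65 to 15.78 in the other C10 rats, against 15.44 to 15.9 in REF. The amount of muscle in each piece thus differed between rats, and its part in the falls of muscle genes was not tested.

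Of the immediate-early and stress genes, 3 of 32 fell and 1 rose. Atf3, a stress-induced transcription factor, was at 9.54, 10.87, 9.96 and 9.36 against 11.87, 11.86, 11.56 and 11.46, a fall of 3.11-fold, with CF minus REF at -1.17 and I minus REF at -1.77. Rgs1 and Rgs2, regulators of G protein signalling, fell by 2.75 and 1.79-fold, and Rgs2 lost its call with duplicateCorrelation (limma adjusted p = 0.0538). Gadd45b, a growth arrest gene, rose by 1.89-fold, and its adjusted p was 0.0443 (0.0576 with duplicateCorrelation, both by limma). All 4 genes had separate groups, and none passed in every fit without 1 rat.

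Single members of other lists fell. Gsta1 and Gsta3, glutathione transferases, were the 2 of 37 xenobiotic genes called, with Gsta3 at 7.19 to 7.88 against 8.26 to 8.53 (difference -0.94, SE 0.15). Gsta1 was at 8.24, 8.91, 8.17 and 8.33 against 9.12, 8.8, 9.35 and 9.22, with C10 rat 2 above REF rat 2, and it lost its call with duplicateCorrelation (limma adjusted p = 0.0506) and in 5 of 8 fits without 1 rat. F3, the tissue factor that starts coagulation, was at 9.12, 9.98, 9.23 and 9.97 against 10.54, 10.76, 10.51 and 10.29. Mt3, a metallothionein, fell by 2.39-fold, and Pga5, a pepsinogen, by 2.73-fold, while Noxa1, an activator of NADPH oxidase 1, Reg4, Atp5po and Alpl fell by 1.23 to 1.82-fold. Each was the only member of its list to change, apart from the 2 transferases. These lists had from 10 (that of Pga5) to 52 (that of Atp5po) tested genes. Since 0.97% of all genes fell, a single call says little about its list. With duplicateCorrelation the calls of Pga5 (limma adjusted p = 0.0507), Noxa1 (0.0524) and Atp5po (0.056) were lost. Without the offset Alpl, a phosphatase whose probe was well above background in 1 of the 4 C10 rats, differed by -0.75 instead of -0.29.

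The remaining falls of 2-fold or more with a symbol belonged to none of the lists. They were H19, an imprinted long RNA, Kifc2, a kinesin, Mcemp1, a membrane protein named for mast cells, Rgs4, Scx, a transcription factor of tendons, Serpinf1, a secreted serpin, Srpk3, a kinase of muscle, and Fcrl2, an Fc receptor-like protein, besides Vch. Fcrl2 was at 6.49, 6.6, 6.46 and 7.86 against 9.37, 8.85, 7.74 and 8.84, so that C10 rat 4 overlapped with REF rat 3. Its difference was -2.03, and -3.06 without the offset. Fcrl2 and Serpinf1 lost their calls with duplicateCorrelation (limma adjusted p = 0.0507 and 0.0502) and in 6 of 8 fits without 1 rat. Kifc2 was at 11.6, 11.15, 12.03 and 11.29 against 12.72, 12.58, 12.31 and 12.55 (difference -1.08, SE 0.16, adjusted p = 0.00933 by limma). H19, Mcemp1 and Srpk3 overlapped as well, whereas Rgs4, Scx, Serpinf1 and Kifc2 did not. Without the offset Mcemp1 differed by -1.8 instead of -1.08. For Scx a second probe gave -0.22, against -1.04 for the brighter one.

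Of the 13 changes at 2-fold or more without a current symbol, the largest fall with separate groups was that of the transcript ENSRNOT00000051796 (-2.34, SE 0.53) and the next that of ENSRNOT00000038253, at 10.22, 10.01, 8.65 and 8.4 against 12.12, 11.15, 12.25 and 11.79 (-2.21, SE 0.3). The rises were XM_001080040 (1.13, SE 0.2) and the probe A_64_P038839 (1.04, SE 0.24). ENSRNOT00000051796 and A_64_P038839 lost their calls with duplicateCorrelation (limma adjusted p = 0.0508 and 0.0576).

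Some of the largest differences did not pass, and rats of a diet differed widely for these genes. With a symbol, 28 genes were at least 2-fold higher and 52 at least 2-fold lower without passing. The values given here were chosen for their size or for their role after they were seen. Scgb1a1, a secretoglobin of epithelia, was at 8.55, 9.01, 8.17 and 12.62 in C10 and at 7.41, 6.79, 8.1 and 6.57 in REF (difference 2.33, SE 0.68, limma adjusted p = 0.0985), with separate groups of which C10 rat 4 was far above the rest. Scnn1g, the gamma subunit of the epithelial sodium channel, was at 10.65 in that same rat and at 6.65 to 7.12 in the other C10 rats, against 6.44 to 6.62 in REF.

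Sftpd, a collectin of mucosal surfaces, was at 14.8, 16.04, 14.07 and 15.57 against 13.53, 11.77, 15.24 and 10.06 (difference 3.12, SE 1.35, adjusted p = 0.238 by limma). REF rat 4 was the lowest for Sftpd, as it was for Hoxb13 and for Atp12a, the colonic proton pump (8.5, against 12.08 to 13.61 in the other REF rats and 12.13 to 15.18 in C10). Cyp4f1, a fatty acid hydroxylase, and Pzp, a protease inhibitor, were highest in that rat among the 8, at 12.23 and 10.66. The place of each piece along the colon is not given more closely than mid-colon, and its part in these differences was not tested.

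**Figure D4:**
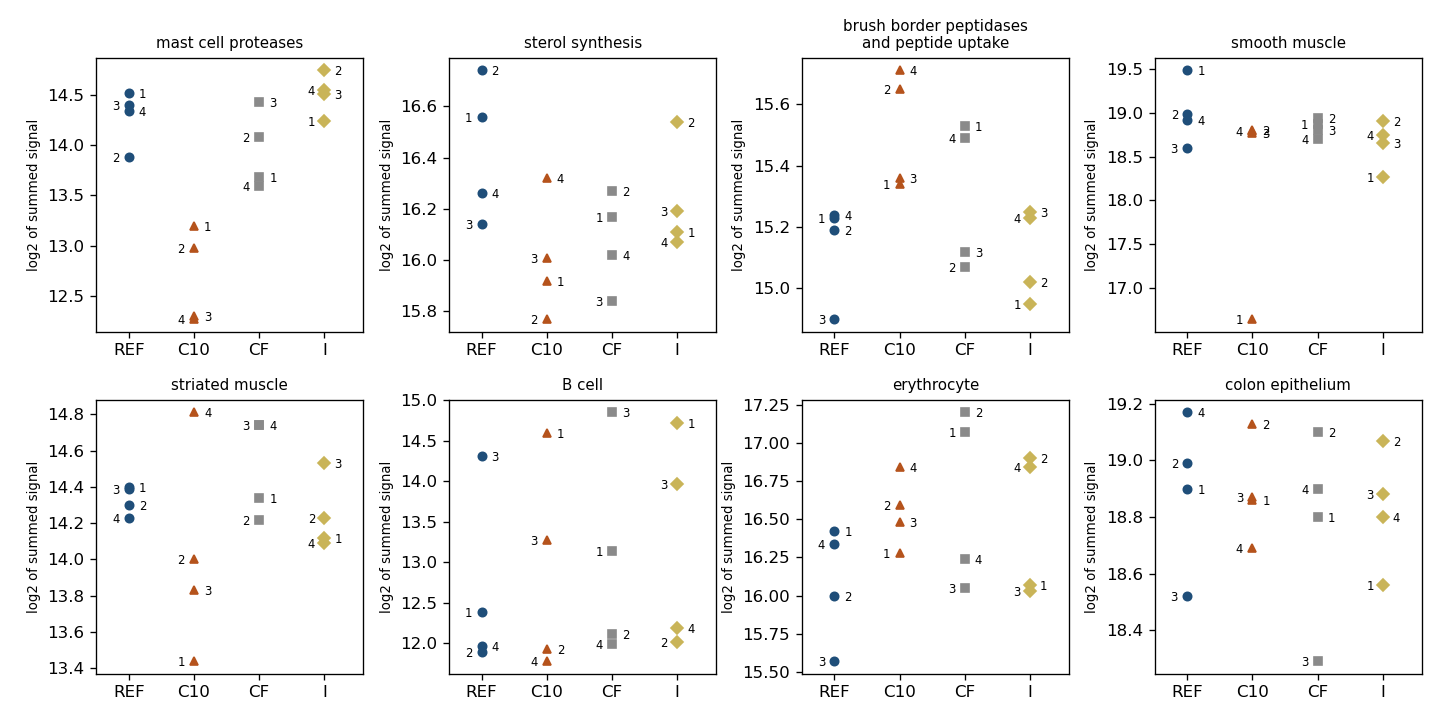
Log2 of the summed signal (vertical axes, which differ between panels and do not start at 0) of 8 gene lists in each of the 16 rats, by diet, with the rat's number beside its point. The C10 rats lie under the REF rats for mast cell proteases (12.27 to 13.19 against 13.88 to 14.52) and above them for brush border peptidases and peptide uptake. C10 rat 1 lies far under all others for smooth muscle (16.65), and colon epithelium overlaps between the diets.

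Gene lists with no change called included goblet cells (15 genes), proliferation (30), tight junctions (17), endoplasmic reticulum stress (20), fibroblast and matrix (17), endothelium (13), crypt stem cell and Wnt targets (10), small intestine (10), posterior Hox (7) and epithelial sodium and potassium transport (15). Ocln (occludin), a tight junction protein, was at 11.04 to 11.68 in C10 and 10.81 to 11 in REF, separate but with an adjusted p of 0.0532 by limma (difference 0.52, SE 0.12). St6galnac1, a sialyltransferase of goblet cell mucin, had a difference of 0.56 (SE 0.13, adjusted p = 0.0538 by limma). A p that misses the threshold does not show that these genes were alike on both diets.

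**Figure D5:**
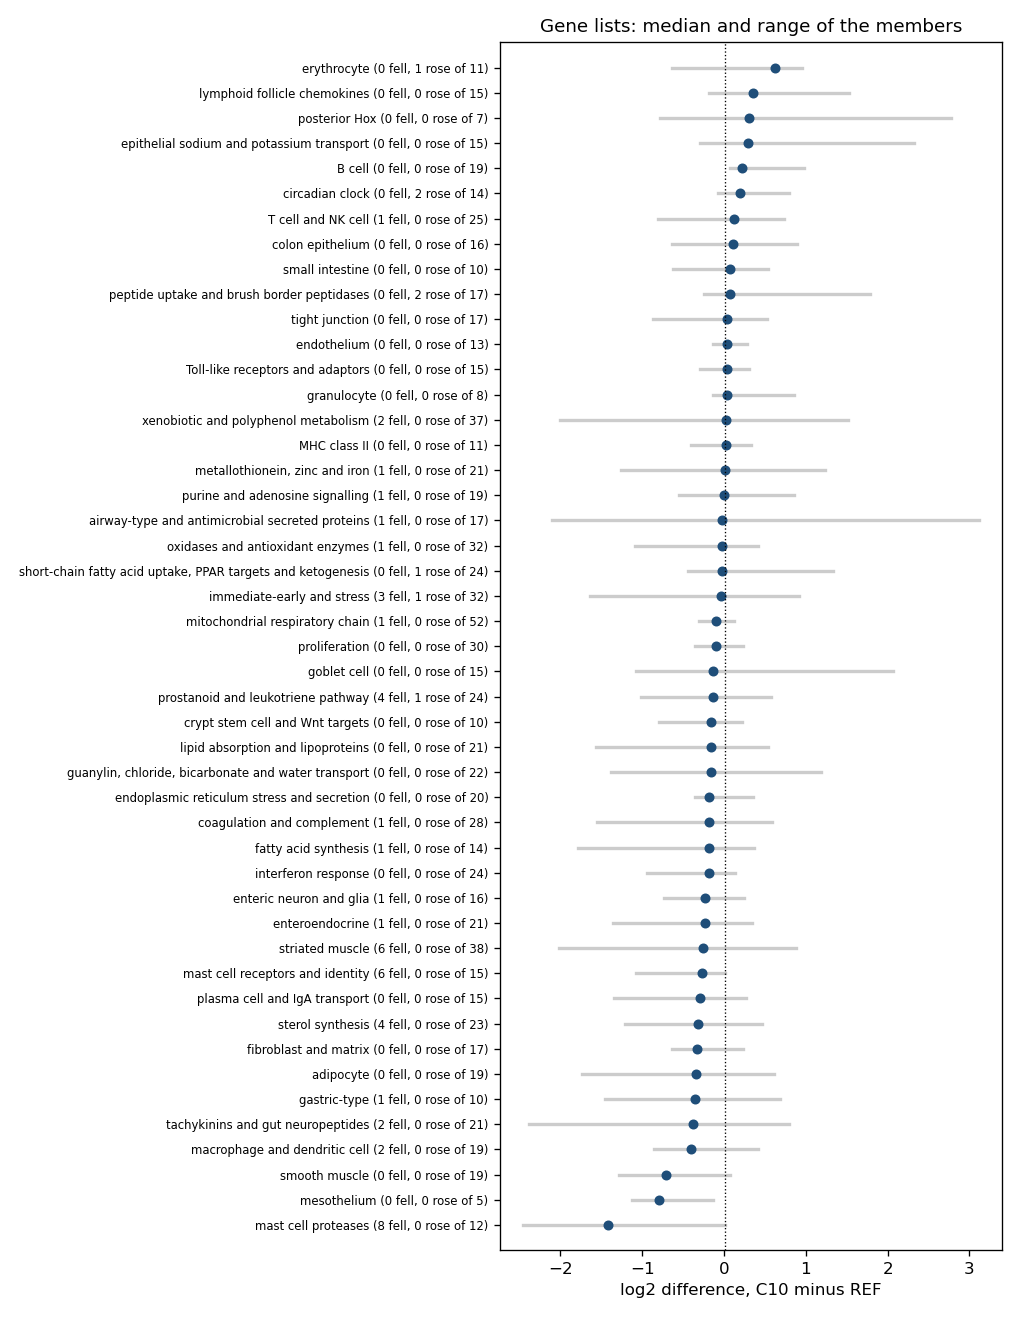
Each row is a gene list with at least 5 tested members, with its count of members that fell and rose in brackets. The dot is the median log2 difference (C10 minus REF, horizontal axis), the grey bar runs from the lowest to the highest member, and the dotted line is the median of all genes (0.0134). Mast cell proteases have the lowest median (-1.42) and erythrocyte genes the highest (0.62).

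The genes called were also followed in all 16 rats as a description, since they had been chosen by these values. The 193 falls averaged -0.87, -0.63, -0.73 and -0.81 in C10 rats 1 to 4 relative to the REF mean, and the 105 rises 0.52, 0.55, 0.42 and 0.55, so each C10 rat took part. In CF rats the same falls averaged -0.31 to -0.06, and in I rats -0.22 to 0.03. In C10, rat 1 was the lowest for 81 of the 193 falls and rat 4 for 66.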

How the data were processed

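Colon RNA of 16 rats was hybridized to 8 arrays. The output of Feature Extraction 10.7.3.1 that the authors deposited holds, for each dye, the median intensity of every spot and of its local background, not normalized, and processed intensities, used in 1 alternative. The submitters' normalized values were not used here, because no name ties their 8 columns to an array. The methods describe dye swaps for each sample, whereas the labels give each rat 1 array and 1 dye, and the rat was the replicate.

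Median intensities were corrected with limma 3.58.1 (R 4.3.3, statmod 1.5.0, the data.table package, version 1.17.8) by normexp with an offset of 50, then by spatial loess (span 0.4, degree 2), intensity loess (span 0.3) and Aquantile. The methods name these steps without the offset or spans. Spots marked as outliers (604 to 896 of 62976 per array) were dropped, and saturation was flagged on 0 spots. The filter asked that a probe be above background (Agilent's flag) in 4 or more of the 16 rats and have values on every array. It kept 22537 of 30367 probes, and 6 probes in all lacked a value on some array. Accessions gave a RefSeq symbol for 18005 probes, and 19899 genes (11921 with a symbol) were tested by their brightest probe.

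The log2 signals of all 16 rats were fitted in limma on diet and dye, with array as a block. Named genes were those with a symbol that passed at 2-fold, the 15 rises and 15 falls of smallest adjusted p, and the called members of each list or, where there were none, up to 3 of smallest p. The comparison, members and lists were chosen with earlier results of these data known. The alternatives duplicateCorrelation, degree 1 of the spatial loess and leaving out the 2 REF rats of arrays 7 and 8 were chosen after seeing the data. The number of calls was also in view when degree 2 replaced degree 1, and when correlations from 0 to 0.477 were compared, but the estimator fixed at the start was kept. Other alternatives were another background correction or normalization, other filters, terms and probes, and leaving out each rat. A few members of the lists are not reported here by name. The scripts were tested on simulated data. The number of arrays limits the precision.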

Additional observations from a re-analysis of the deposited data

Results flagged for a closer look

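In 26 of 310 groups of 4 rats (155 named genes in C10 and REF), 1 rat lay far from the other 3 of its diet for the spread of the group. Chance alone marks about 1 in 20 such groups.

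REF rat 3 gave the most of these values. Follicle and lymphoid genes were high in it, with Spib at 12.18 (others 9.05 to 9.42) and Cxcl13 at 10.63 (6.98 to 7.58), as were Rgs2 at 12.91 (11.72 to 11.83), Pbld1 at 10.49 (9.9 to 9.97), St6galnac1 at 11.36 (10.95 to 11.02) and Marveld2 at 7.28 (7 to 7.04). It was low for Cpa3 at 9.17 (9.8 to 9.9), Noxa1 at 12.55 (13.06 to 13.07), Tpm1 at 14.76 (15.46 to 15.51), Hoxd4 at 6.52 (6.64 to 6.67), Tyms at 8.33 (9 to 9.11) and Dnajb11 at 10.72 (11.21 to 11.25).

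C10 rat 1 was low for the muscle genes Tpm1 at 13.19 (14.85 to 15.01), Des at 12.32 (14.61 to 14.84), Casq1 at 6.22 (7.07 to 7.09) and Smpx at 5.98 (6.3 to 6.32). C10 rat 4 was high for Fcrl2 at 7.86 (6.46 to 6.6) and the probe A_64_P038839 at 8.94 (7.74 to 7.87), and low for Tlr10 at 6.11 (6.37 to 6.43). C10 rat 3 was at 9.07 for Artn (8.74 to 8.79) and at 6.74 for Slc4a1 (6.83 to 6.84).

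REF rat 2 was high for Casq2 at 9.25 (8.79 to 8.81) and low for Tef at 8.47 (8.97 to 9.07) and Alpl at 6.39 (6.61 to 6.65). REF rat 1 was at 6.63 for Slc4a1 (6.32 to 6.34) and REF rat 4 at 8.02 for Tbxa2r (7.76 to 7.8).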

How the results depend on the processing

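The fit reported gave 105 rises, 193 falls and 45 changes of 2-fold or more. Other settings gave, in that order, 66, 146 and 74 without an offset, 70, 113 and 82 with processed signals, 206, 216 and 71 without normalization between arrays, 7, 12 and 6 with only the 8 rats, 0, 0 and 0 with log-ratios within arrays (2626 genes at an unadjusted p below 0.05, smallest limma adjusted p 0.0568), 11, 31 and 17 without an array term, 22, 47 and 21 without a dye term, 55, 122 and 39 with slide position, and 63, 115 and 37 with duplicateCorrelation. With the correlation set to 0.3, 38 genes rose and 67 fell. Leaving out 1 rat gave 6 to 452 rises, 36 to 655 falls and 18 to 120 changes of 2-fold or more, lowest without REF rat 2 and highest without REF rat 3. It was 161, 195 and 92 without C10 rat 1, 25, 106 and 33 without C10 rat 2, 179, 245 and 60 without C10 rat 3, 153, 306 and 59 without C10 rat 4, 119, 109 and 51 without REF rat 1, and 21, 77 and 25 without REF rat 4. The causes were not tested. No spatial loess, spatial loess of degree 1, quantile normalization, other filters on dim probes, a prior variance following the signal, single probes and leaving out the 2 REF rats of arrays 7 and 8 kept every count within 1.5 times. Of the 32 changes of 2-fold or more with a symbol, 9 passed in every fit without 1 rat, and 25 with slide position. The named genes that were called kept their direction under all these settings. The sign turned for 3 named genes that were not called: RT1-DMa (0.04 without the REF rats of arrays 7 and 8), Ctss (0.12, and -0.15 to 0.24 over the fits without 1 rat, below 0 without C10 rat 2 and, at -0.07, REF rat 2) and Hoxb4 (from -0.01 to 0.01 without an offset, 0 with processed signals, 0.01 with quantile normalization, 0.01 with only the 8 rats, 0.08 without an array term, 0.03 without a dye term, 0 with duplicateCorrelation, and -0.11 to 0.14 over the fits without 1 rat, above 0 without C10 rat 1, REF rat 1 at 0.02, C10 rat 2 at 0.01 or REF rat 4 at 0.07). Signals near the floor of 5.83 to 6.21 limit what a fall can show. The rat numbers only name rats, so no replicate block was fitted on them. Arrays 1 and 2, which hold a C10 and a REF rat each, were paired through the array block and in the log-ratios within arrays.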
